A study of Mus musculus with 6 samples.

Results

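The aryl hydrocarbon receptor axis was followed in mouse Th17 cultures through 4 genes, taken by symbol from a deposited expression table of 10041 rows: Ahr (the receptor), Arnt (its DNA-binding partner), Tiparp and Cyp1a1 (direct targets). Each had 1 row of its own. Naive CD4 T cells were cultured for 48 h with oligomycin (2.5 ng/ml, 3 libraries), an inhibitor of the mitochondrial ATP synthase and thereby of oxidative phosphorylation, or with its vehicle DMSO (3 libraries). Both groups were activated by antibodies, plate-bound anti-CD3e at 10 µg/ml and anti-CD28 at 1 µg/ml. Polarization towards Th17 cells used 20 ng/ml of IL-6, 10 ng/ml of IL-23 and 2.5 ng/ml of TGF-β1. The labels give no strain, genotype, age or sex of the mice, and do not say whether the libraries came from separate animals, so the spread between libraries may be partly technical. The 4 genes were proposed with this comparison in view, and their values are therefore described without a test. The wider pathway was tested, although its lists were also chosen with earlier results of these data known.

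The receptor encoded by Ahr rests in the cytosol with HSP90 and other chaperones until it binds a small ligand, such as a dioxin, a dietary indole or a tryptophan metabolite. It then enters the nucleus, pairs with ARNT and binds DNA elements with the core GCGTG beside its target genes. Cyp1a1 encodes a cytochrome P450 that oxidizes many of the ligands, and Tiparp encodes a mono-ADP-ribosyltransferase (PARP7) that modifies the receptor and dampens its activity. In T cells the receptor is most abundant in Th17 cells, where it is known for driving IL-22.

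Expression was given as FPKM, which divides fragments by transcript length and library size, so levels can be set side by side between genes. Each level is a share of what its library holds, and fewer cells expressing a gene cannot be told apart from less RNA per cell. The sequencing depth is unknown. Library medians ran from 13.8 to 14.7 FPKM over all rows. FPKM sums over all rows varied more, at 1.86e+06 to 2.10e+06 with oligomycin and 1.43e+06 to 1.92e+06 with DMSO. Over tested rows other than small RNA rows they were 394671 to 433261 with oligomycin and 432468 to 467841 with DMSO. Pearson correlations of log2(FPKM + 1) across tested genes, which are not independent replicates, were 0.940 to 0.962 within oligomycin, 0.963 to 0.969 within DMSO and 0.890 to 0.937 between the groups. All 5 CD4 T cell markers had a row, with a summed level of 579 to 661 FPKM with oligomycin and 554 to 680 FPKM with DMSO. All 5 Th17 markers had one too, with sums of 288 to 455 FPKM with oligomycin and 1683 to 1947 FPKM with DMSO. In the test described below, 4 of the 5 Th17 markers and 1 of the 5 CD4 T cell markers were called. Over all tested genes the share was 30.2%. The part of these markers in the results on the receptor axis was not tested. Rows were found for 0 of 4 B cell markers, 0 of 3 dendritic cell markers and 0 of 4 NK and innate lymphoid markers, and for 1 of 2 CD8 T cell markers (Cd8b1, 2.41 to 3.30 FPKM with oligomycin and 2.63 to 3.12 FPKM with DMSO). The table lists rows whose mean in the higher group was at least 1.5 FPKM, so a gene without a row is not shown to be absent.

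The receptor gene and the targets followed here, Tiparp and Cyp1a1, parted in these cultures. Other listed targets moved in both directions, as given below. Cyp1a1 was below 1 FPKM in every DMSO library and above 4 FPKM in every oligomycin library, and the mean of Tiparp with oligomycin was 1.99 times that with DMSO. Ahr itself overlapped between the groups, and Arnt was slightly lower with oligomycin. In the log2 difference of log2(FPKM + 1), oligomycin minus DMSO, Cyp1a1 stood at 2.49 (SE 0.35), Tiparp at 0.92 (SE 0.16), Ahr at 0.06 (SE 0.32) and Arnt at -0.42 (SE 0.19), with n = 3 per group. All tested genes had a median of -0.00442. Of 9986 tested genes, 19 had a larger positive difference than Cyp1a1 and 398 a larger one than Tiparp. Cyp1a1 entered the tested set only through its oligomycin libraries, and its difference depends on the pseudocount, as given below. Its rank is therefore only a description. The libraries of both groups did not overlap for Cyp1a1 and Tiparp (higher with oligomycin) or for Arnt (lower), which also held for 23.1% and 24.3% of all tested genes, higher and lower.

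**Figure D1:**
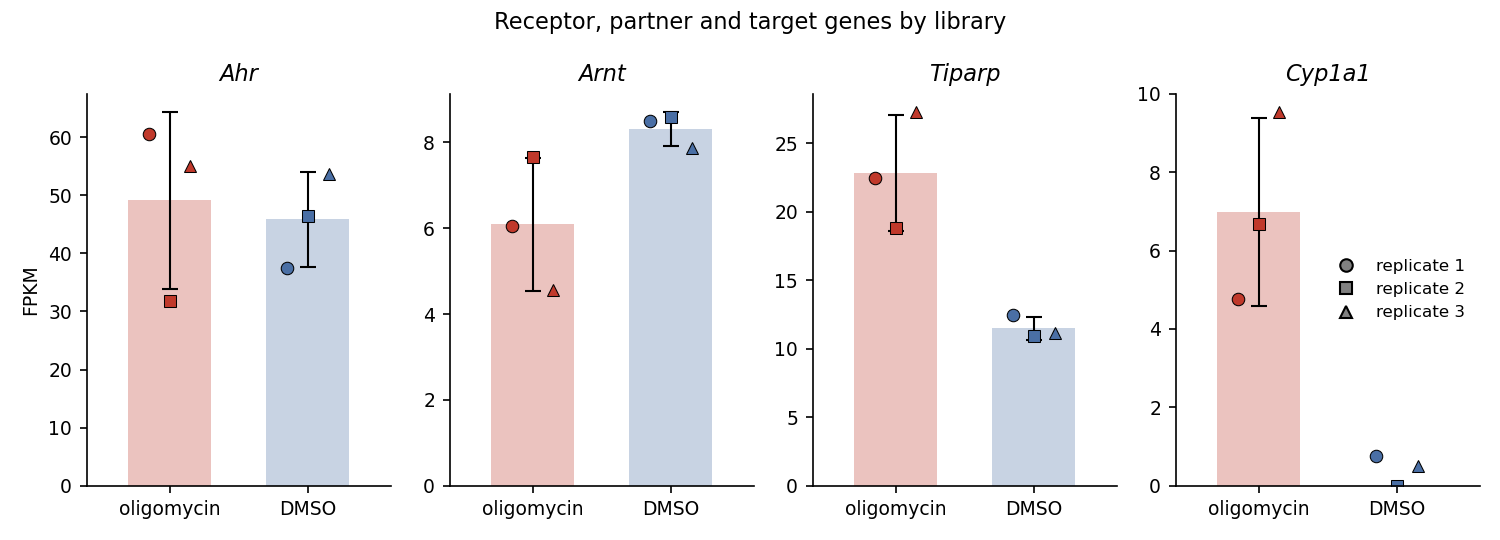
FPKM of Ahr, Arnt, Tiparp and Cyp1a1 in each library, oligomycin left of DMSO; points are libraries, bars the mean and error bars the SD (n = 3), left out for Cyp1a1 with DMSO, where 1 library is listed at 0. The Tiparp and Cyp1a1 points lie apart, with every oligomycin library above every DMSO library, while the Ahr points intermingle.

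**Figure D2:**
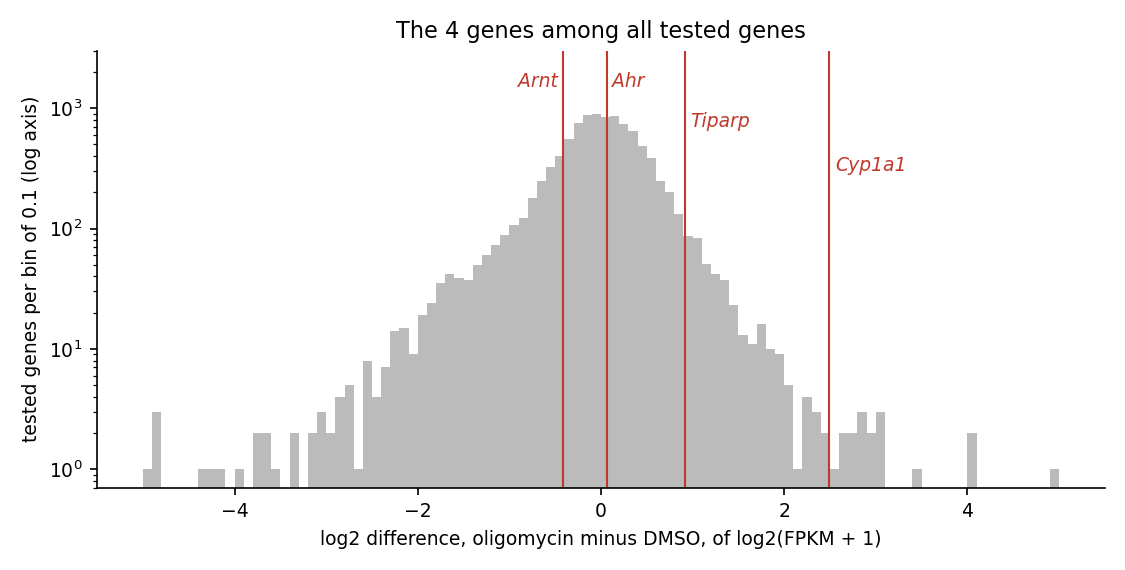
Distribution of the log2 difference (oligomycin minus DMSO) over 9986 tested genes, with the count per bin on a log axis and the 4 genes as vertical lines. Ahr (0.06) lies in the centre, Arnt (-0.42) to its left, Tiparp (0.92) on the right shoulder and Cyp1a1 (2.49) in the far right tail. Cyp1a1 entered this set only through its oligomycin libraries.

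Ahr (XLOC_004594, GRCm38 chromosome 12, 35497979 to 35534989, minus strand, a protein-coding gene with up to 11 exons in GENCODE M21) stood at 60.5, 31.9 and 55.0 FPKM in the oligomycin libraries and at 37.4, 46.5 and 53.6 FPKM in the DMSO libraries. Oligomycin replicate 2 was the lowest of all 6 libraries and oligomycin replicate 1 the highest, so the DMSO libraries lay wholly inside the oligomycin range. The means were 49.1 ± 15.2 FPKM with oligomycin and 45.8 ± 8.12 FPKM with DMSO (SD, n = 3 each). The sign of the difference rested on single libraries: it was 0.34 without oligomycin replicate 2, and it was -0.11, -0.04 and -0.07 without oligomycin replicate 1, oligomycin replicate 3 and DMSO replicate 1. Among the 4 genes the receptor was the most abundant in every library, at a mean level above that of 83.5% of all rows with oligomycin and 80.9% with DMSO.

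Arnt (XLOC_012841, chromosome 3, 95434390 to 95497239, plus strand, up to 22 exons) stood at 6.06, 7.66 and 4.56 FPKM with oligomycin and at 8.49, 8.58 and 7.87 FPKM with DMSO. All oligomycin libraries were lower, but the highest of them came close to the lowest DMSO library, which was only 1.03 times as high. The means were 6.09 ± 1.55 FPKM with oligomycin and 8.31 ± 0.391 FPKM with DMSO (SD, n = 3 each), a ratio of 0.733. Leaving out oligomycin replicate 3 brought the log2 difference to -0.25, a change of over 1.5 times, and leaving out oligomycin replicate 2 brought it to -0.57. The receptor transcript outnumbered that of its partner 9.99-, 4.16- and 12.1-fold in FPKM with oligomycin and 4.41-, 5.42- and 6.82-fold with DMSO. Oligomycin replicate 2 held the lowest of these ratios, so the groups overlapped.

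Tiparp (XLOC_012673, chromosome 3, 65527485 to 65555518, plus strand, up to 6 exons) stood at 22.5, 18.8 and 27.3 FPKM with oligomycin and at 12.5, 10.9 and 11.1 FPKM with DMSO. The lowest oligomycin library was 1.51 times as high as the highest DMSO library. The means, 22.9 ± 4.25 FPKM with oligomycin and 11.5 ± 0.841 FPKM with DMSO (SD, n = 3 each), had a ratio of 1.99, and the log2 difference stayed between 0.79 and 1.05 when any single library was left out. Per receptor transcript, Tiparp reached 0.372, 0.590 and 0.496 with oligomycin and 0.333, 0.235 and 0.207 with DMSO. The ratio was therefore higher in every oligomycin library, although oligomycin replicate 1 was close to DMSO replicate 1. Its highest value, in oligomycin replicate 2, came with the lowest Tiparp level of that group and was raised by the low Ahr level there.

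The Tiparp row shares its locus with a row for 4931440P22Rik, a transcribed processed pseudogene on the opposite strand, and whether the libraries kept strand is not given in the sources used here. The annotated exons of both overlap over 223 bases, 5.12% of the Tiparp exon bases, and reads from that stretch cannot be assigned to one of them without strand. 4931440P22Rik stood at 1.62, 2.0 and 2.18 FPKM with oligomycin and at 0.489, 1.0 and 0.529 FPKM with DMSO, also without overlap. Tiparp was 9.40 to 13.9 times as high as this row in the oligomycin libraries and 10.9 to 25.5 times as high in the DMSO libraries.

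Cyp1a1 (XLOC_021104, chromosome 9, 57687928 to 57703824, plus strand, up to 7 exons) stood at 4.75, 6.69 and 9.53 FPKM with oligomycin. With DMSO it stood at 0.753 and 0.489 FPKM in replicates 1 and 3 and was listed at 0 in replicate 2. A listed 0 can be a failed estimate, since Rpl9, a ribosomal protein gene that every cell uses, was also listed at 0 in that library, so no mean or fold is given for DMSO. The lowest oligomycin library was 6.31 times as high as the highest DMSO library, and without DMSO replicate 2 the log2 difference was 2.26. The pseudocount of 1 weighs on such a low gene, and with a pseudocount of 0.1 the difference was 4.21. That value includes the listed 0 of DMSO replicate 2, which weighs more the smaller the pseudocount. Cyp1a1 reached the minimum of 1 FPKM in 3 libraries, all of them with oligomycin, so it entered the tested set only through the group in which it was high. With oligomycin its mean level (6.99 ± 2.40 FPKM, SD, n = 3) lay above that of 28.6% of all rows, and per Tiparp transcript it reached 0.211, 0.356 and 0.349.

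Cyp1a2, the neighbouring paralog that responds to the same receptor, had no row, and how reads shared by close paralogs were counted is not given in the sources used here. The nearest flanking genes with a row did not pass the limma test described below: Csk, which ends 42.7 kb before the Cyp1a1 row, had a log2 change of 0.01 (adjusted p = 0.976), and Edc3, which starts 4.74 kb after it, had 0.48 (adjusted p = 0.0828). Of 5 macrophage and monocyte markers, only Cd68 had a row, at 2.39 to 5.07 FPKM with oligomycin and 1.08 to 2.07 FPKM with DMSO (adjusted p = 0.0532), and its part in the Cyp1a1 values was not tested. Lyz2, Csf1r, Itgam and Adgre1, the other 4 of that list, had no row.

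The upstream bases of both target genes are shown because these are the members that were higher with oligomycin. They were taken from the RefSeq promoter windows (GRCm38.p6, plus strand, 250 bases before to 50 after a transcript start), which held 3 of the 4 genes and none for Ahr, and annotated exon bases were left off their ends. The Cyp1a1 and Tiparp windows each lie inside the locus of their row, which starts further upstream. Capitals mark the receptor core GCGTG, or its reverse complement where it lies on the other strand.
Cyp1a1, chr9:57697363-57697612: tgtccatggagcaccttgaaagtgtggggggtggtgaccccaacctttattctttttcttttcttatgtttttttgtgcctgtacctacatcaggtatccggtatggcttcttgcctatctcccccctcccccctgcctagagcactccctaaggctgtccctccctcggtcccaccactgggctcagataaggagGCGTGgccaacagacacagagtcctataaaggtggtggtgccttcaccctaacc
Tiparp, chr3:65528197-65528409: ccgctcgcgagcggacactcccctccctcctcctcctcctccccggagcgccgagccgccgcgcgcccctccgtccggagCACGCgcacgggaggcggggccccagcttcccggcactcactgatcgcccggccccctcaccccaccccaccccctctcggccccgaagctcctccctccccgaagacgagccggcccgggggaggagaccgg
The core lies on the plus strand in the Cyp1a1 window, at position -54 from the transcript start, followed by a TATAAA box at position -30. In the Tiparp window it lies on the minus strand, at position -170. The Arnt window also held it once. Such a match is common: 32.4% of 32851 mouse promoter windows and 52.8% of the 9087 windows of genes in the table held GCGTG on either strand. The longer form TNGCGTG, which contains GCGTG, was found in none of the 3 windows and in 8.48% of the windows of genes in the table. ACGTG, a form of the HIF core, was also in none of the 3, nor was CACGTG, the E-box that contains it. They occurred in 27.0% and 10.6% of the windows of genes in the table. HIF elements can also read GCGTG, so that core does not tell receptor elements from HIF elements. A match is a run of letters and does not show binding, and letters missing from these windows may lie further away.

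The rows whose centred profile over the 6 libraries lay nearest to each gene, by Euclidean distance of log2(FPKM + 1), differed between the 4 genes. Nearest to Ahr were Coq10b, a gene of coenzyme Q function (distance 0.35), Cno (0.38) and Ggh, a folate hydrolase (0.38), all of them low in oligomycin replicate 2. Near to Arnt were Coro1b, an actin regulator (0.16), and Tnip1, an inhibitor of NF-κB signalling (0.17). Tiparp lay nearest to the ribosomal protein genes Rpl13 (0.23), Rpl35a (0.26) and Rps4x (0.29). The best matches of Cyp1a1 were looser, with Ms4a4b at 0.95, the transcription factor gene Klf3 at 0.99 and the glycine transporter gene Slc6a9 at 1.01. Rpl13 averaged 265 ± 44.0 FPKM with oligomycin and 137 ± 17.8 FPKM with DMSO, and Ms4a4b averaged 19.8 ± 8.57 FPKM with oligomycin and 2.08 ± 0.403 FPKM with DMSO (SD, n = 3 each). These likenesses rest on 6 libraries and were picked from 7188 rows (7189 for Tiparp), and they say nothing about shared control.

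**Figure D3:**
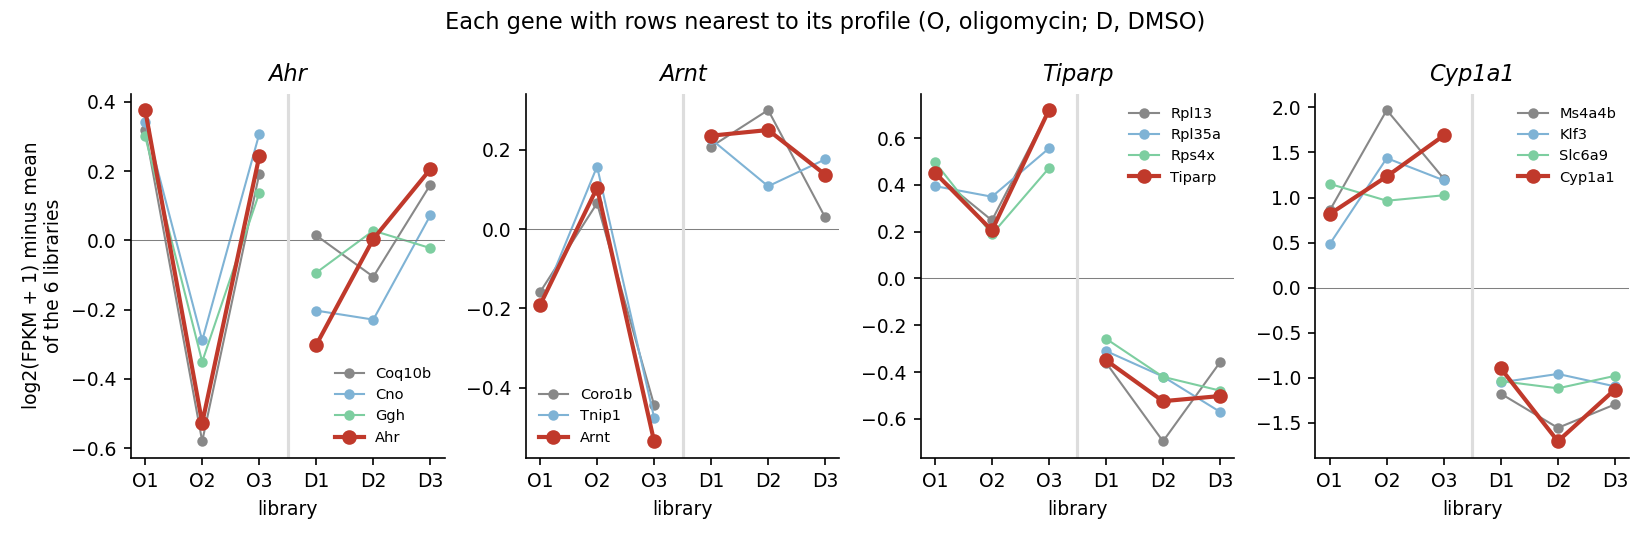
Level of each of the 4 genes (thick line) and of the 3 rows nearest to its profile (2 for Arnt), as log2(FPKM + 1) minus the mean of the 6 libraries, with the oligomycin libraries (O1 to O3) left of the DMSO libraries (D1 to D3); lines only join the points of a gene within a group. Ahr and its nearest rows dip in O2, Arnt and its nearest rows are lowest in O3, and Tiparp and Cyp1a1 lie above 0 in all oligomycin libraries and below 0 in all DMSO libraries.

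To see the wider pathway, 91 further genes in 6 role lists were looked up, of which 56 had a row and all 56 were tested with limma on log2(FPKM + 1), Benjamini-Hochberg adjusted over 9986 genes. At an adjusted p of 0.05, 15 rose with oligomycin, 8 fell and 33 were not called. As the lists were chosen with earlier results of these data known, their counts here and below are only a description. Among all tested genes 30.2% were called, with 14.0% that rose (1403 genes) and 16.1% that fell (1610 genes). Over all genes, the number that rose was 816 without DMSO replicate 1 and 780 without DMSO replicate 3. Lower calls came to 1071 without DMSO replicate 1, to 1040 without DMSO replicate 2 and to 989 without DMSO replicate 3. The median log2 change of the 56 genes was 0.14. The number that fell was unstable, at 3 without DMSO replicate 1 or DMSO replicate 3 and 5 without oligomycin replicate 3 or DMSO replicate 2. The number that rose lay between 10 and 16 when any single library was left out, being 10 without DMSO replicate 2 or DMSO replicate 3.

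**Figure D4:**
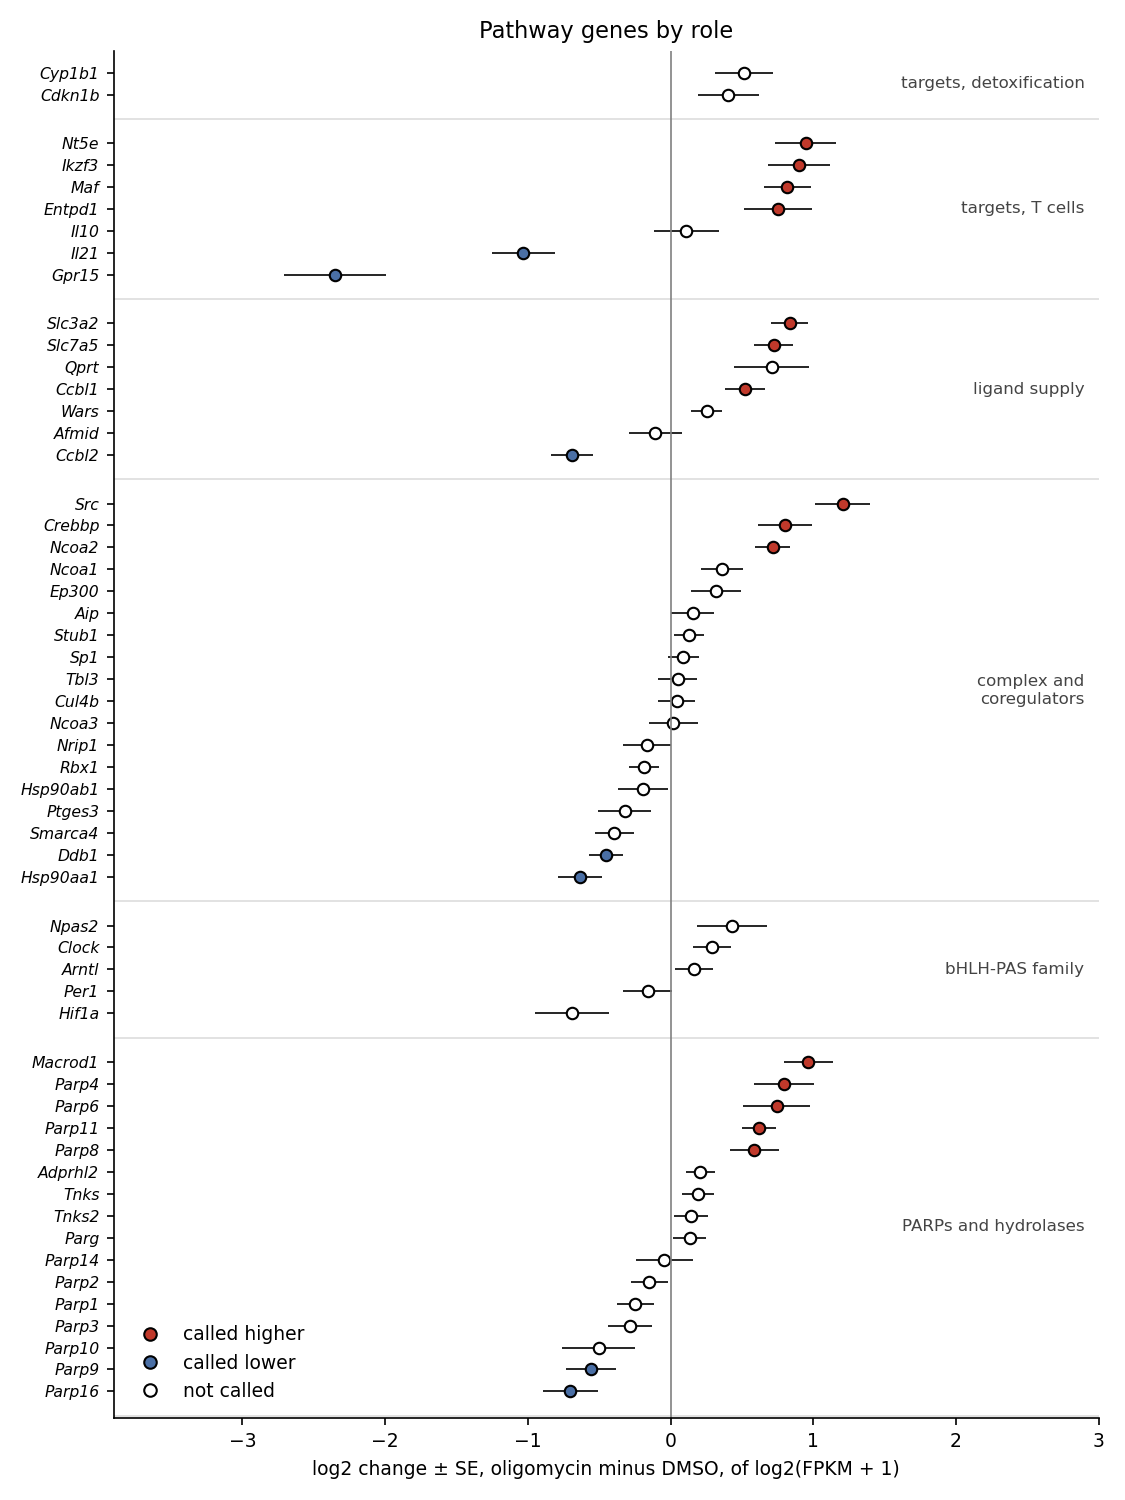
Log2 change (oligomycin minus DMSO) with its SE for 55 of the 56 tested pathway genes, grouped by role; red points rose, blue points fell and white points did not pass an adjusted p of 0.05. Both directions occur among the T cell targets, the ligand supply, the complex and the PARP genes, and of the genes drawn Gpr15 (-2.35) lies furthest from 0.

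Among detoxification and other general targets of the receptor, the higher level of Cyp1a1 had no called counterpart. Of 12 listed genes only 3 had a row, and with limma 0 rose, against 14.0% of all tested genes. At an unadjusted p of 0.05, 1 gene (Cyp1b1) was higher. Cyp1b1, a related P450 gene, stood at 1.17, 2.01 and 1.93 FPKM with oligomycin and at 1.15, 0.715 and 0.781 FPKM with DMSO (log2 change 0.51, adjusted p = 0.0874, limma). Cdkn1b, which encodes the cell cycle inhibitor p27, stood at 46.7, 71.4 and 89.1 FPKM with oligomycin and at 48.4, 54.9 and 47.5 FPKM with DMSO (adjusted p = 0.180). In both genes oligomycin replicate 1 was inside or next to the DMSO range. Without that library both were called higher (adjusted p = 0.0346 for Cyp1b1 and 0.0106 for Cdkn1b). Neither was called under any other alternative that tested it, with adjusted p of 0.232 and 0.483 without oligomycin replicate 3. Nqo1, Aldh3a1 and the listed Ugt1a and Gsta genes had no row.

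Genes tied to the receptor in T cells split as well. Of 7 tested genes 4 rose and 2 fell (14.0% and 16.1% over all tested genes). Il22, the hallmark cytokine gene of the receptor in Th17 cells, had no row. Maf, a transcription factor that acts with the receptor on Il10 and Il21, averaged 161 ± 23.2 FPKM with oligomycin and 91.3 ± 14.8 FPKM with DMSO (adjusted p = 0.00732). Ikzf3, which encodes Aiolos, averaged 46.6 ± 1.6 FPKM with oligomycin and 25.5 ± 7.94 FPKM with DMSO (adjusted p = 0.0158). Nt5e, the adenosine-producing ectoenzyme CD73, averaged 131 ± 17.7 FPKM with oligomycin and 69.4 ± 19.9 FPKM with DMSO (adjusted p = 0.0123). Entpd1, the ATP-degrading ectoenzyme CD39, rose by 0.75 on the log2 scale (adjusted p = 0.0431), a call that was lost under quantile normalization and on leaving out any library except oligomycin replicate 2 (adjusted p of 0.0517 to 0.138). Gpr15, a homing receptor for the large intestine whose expression depends on the receptor, fell to 4.26, 9.99 and 8.13 FPKM with oligomycin, against 23.8, 59.6 and 45.6 FPKM with DMSO (log2 change -2.35, SE 0.35, adjusted p = 0.00207). Il21 averaged 78.5 ± 27.0 FPKM with oligomycin and 156 ± 10.0 FPKM with DMSO (adjusted p = 0.00981). Il10 stood at 24.4 ± 1.16 FPKM with oligomycin and 23.6 ± 9.05 FPKM with DMSO (adjusted p = 0.734). All means are of n = 3 libraries with their SD, and the p-values are from limma.

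On the side of ligand supply, RNA of both chains of the transporter that carries tryptophan and kynurenine into T cells rose. Slc7a5, its catalytic light chain, stood at 137, 118 and 98.9 FPKM with oligomycin and at 71.1, 72.9 and 67.4 FPKM with DMSO (log2 change 0.72, SE 0.14, adjusted p = 0.00627). Slc3a2, its heavy chain, stood at 96.1, 92.5 and 73.4 FPKM with oligomycin and at 48.4, 48.5 and 47.8 FPKM with DMSO (log2 change 0.83, SE 0.13, adjusted p = 0.00237). The groups did not overlap for either chain. These are RNA levels, and uptake was not measured. Genes of kynurenine aminotransferases moved apart: Ccbl1 rose by 0.52 (adjusted p = 0.0238) and Ccbl2 dropped by 0.69 (adjusted p = 0.00914). Aadat, another such gene, had no row. The call of Ccbl1 was lost without oligomycin replicate 2 or 3 or DMSO replicate 2 or 3 (adjusted p of 0.0504 to 0.0959). Wars, the tryptophanyl-tRNA synthetase, averaged 61.2 ± 1.61 FPKM with oligomycin and 51.3 ± 3.15 FPKM with DMSO (SD, n = 3 each; adjusted p = 0.104, limma, and 0.0186 under quantile normalization). Qprt, which makes a NAD precursor from the end product of the pathway, had a log2 change of 0.71 (adjusted p = 0.0715, and 0.0220 without oligomycin replicate 1). Neither Wars nor Qprt was called under any other alternative that tested it. In all 3 rose and 1 fell of 7 tested genes, against 14.0% and 16.1% of all tested genes. Ido1, Ido2, Tdo2, Kmo and Kynu, the other main enzymes of the pathway, had no row.

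Within the cytosolic complex and its nuclear coregulators, 3 of 18 tested genes rose and 2 fell. These counts are near the shares over all tested genes (14.0% rose and 16.1% fell). Src, a kinase held in the receptor complex, stood at 3.8, 3.20 and 2.60 FPKM with oligomycin and at 0.544, 1.1 and 0.829 FPKM with DMSO (log2 change 1.2, SE 0.19, adjusted p = 0.00261). Ncoa2, a coactivator, averaged 17.3 ± 2.01 FPKM with oligomycin and 10.1 ± 0.661 FPKM with DMSO (SD, n = 3 each; adjusted p = 0.00379, limma). Crebbp, a histone acetyltransferase, rose by 0.80 (adjusted p = 0.0144, and 0.0523 without DMSO replicate 1). Hsp90aa1, an HSP90 gene, dropped by 0.64 (adjusted p = 0.0155), a call lost without DMSO replicate 1 (0.0527) or DMSO replicate 3 (0.0574). Ddb1, of the ubiquitin ligase that the receptor can recruit, dropped by 0.45 (adjusted p = 0.0227), a call lost under quantile normalization and on leaving out any library except oligomycin replicate 1 (adjusted p of 0.0508 to 0.0939). Hsp90ab1, the more abundant HSP90 gene, stood at 1506 ± 217 FPKM with oligomycin and 1710 ± 83.9 FPKM with DMSO (SD, n = 3 each; adjusted p = 0.434, limma), and Ptges3, the cochaperone p23, at 52.6 ± 11 FPKM with oligomycin and 65.6 ± 10.8 FPKM with DMSO (adjusted p = 0.219). The number of genes in this list that fell was 0 without DMSO replicate 1 or DMSO replicate 3 and 1 without oligomycin replicate 2, oligomycin replicate 3 or DMSO replicate 2.

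The remaining bHLH-PAS factors, the family of Ahr and Arnt, gave no call. With limma 0 of 5 tested genes rose or fell, against 30.2% of all tested genes. At an unadjusted p of 0.05 there was 1 such gene, Hif1a, which encodes the oxygen-regulated partner of ARNT. It stood at 253, 124 and 195 FPKM with oligomycin and at 369, 256 and 276 FPKM with DMSO (log2 change -0.69, SE 0.26, adjusted p = 0.0725). The groups did not overlap, though oligomycin replicate 1 was just under DMSO replicate 2. Without oligomycin replicate 1 the gene was called lower (adjusted p = 0.0199). It was also called lower when rows sharing a locus or naming several genes were left out (0.0483). Leaving out any other single library gave no call. Arntl, which encodes the clock factor BMAL1, averaged 10.5 ± 0.752 FPKM with oligomycin and 9.29 ± 1.34 FPKM with DMSO (SD, n = 3 each; adjusted p = 0.376, limma). Ahrr, the repressor of the receptor and itself a target, had no row, nor had Arnt2 and Epas1.

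Among relatives of Tiparp, the PARP family and the enzymes that remove ADP-ribose, 5 of 16 tested genes rose and 2 fell. The shares over all tested genes were 14.0% and 16.1%. Macrod1, a hydrolase of protein-bound ADP-ribose, stood at 18.0, 17.6 and 18.0 FPKM with oligomycin and at 6.85, 11.7 and 8.08 FPKM with DMSO (log2 change 0.96, SE 0.17, adjusted p = 0.00455). Parp11, a mono-ADP-ribosyltransferase, stood at 6.39, 6.56 and 6.82 FPKM with oligomycin and at 4.0, 3.74 and 4.09 FPKM with DMSO (log2 change 0.62, SE 0.12, adjusted p = 0.00650). Both were called under all 15 alternatives. The other rises were smaller or less steady: Parp4, Parp6 and Parp8 had log2 changes of 0.79, 0.74 and 0.59, and their calls were lost on leaving out 3, 5 and 5 of the 6 libraries in turn, with adjusted p of up to 0.0817, 0.122 and 0.111 (Parp8 also under quantile normalization, 0.0525). Of the genes that fell, Parp9 (-0.56, adjusted p = 0.0434) shares its locus with Dtx3l and lost its call on leaving out each library except oligomycin replicate 2, under quantile normalization and without the intensity trend (adjusted p of 0.0520 to 0.129), and Parp16 (-0.70, adjusted p = 0.0260) lost it without oligomycin replicate 3, DMSO replicate 1 or DMSO replicate 3 (up to 0.108). Parp1, the main poly-ADP-ribose polymerase, averaged 81.3 ± 7.31 FPKM with oligomycin and 96.7 ± 10.7 FPKM with DMSO, and Tnks2, a tankyrase, averaged 60.5 ± 4.82 FPKM with oligomycin and 54.8 ± 4.66 FPKM with DMSO (SD, n = 3 each; adjusted p = 0.182 and 0.394, limma). The number of these genes that rose was 2 without oligomycin replicate 2, DMSO replicate 2 or DMSO replicate 3 and 3 without oligomycin replicate 3. The number that fell was 0 without oligomycin replicate 3, DMSO replicate 1 or DMSO replicate 3 and 1 without oligomycin replicate 1 or DMSO replicate 2.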

How the data were processed

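The deposited values are FPKM, 1 per gene and library, per the file headers. Per the submitters' processing notes, the authors used the aligner TopHat2 (2.1.0) and the Cufflinks suite (Cufflinks 2.2.1.0, with Cuffdiff 2.2.1.3 and Cuffnorm 2.2.1.1) on mouse build mm10, which is GRCm38. No source used here states the annotation, the scaling between libraries, strandedness or filters. Row starts were raised by 1 to count from 1, since this met the RefSeq start of 3714 of 8889 symbols and the unchanged starts met 326.

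Column names hold the group and a replicate number, 1 to 3, that no sample title has (17, 42 and 43), so columns were assigned to groups only and replicate numbers are those of the columns. No whole reads could be recovered from FPKM, so depth is unknown and no counting interval is given.

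The test was limma (3.58.1, in R 4.3.3) on log2(FPKM + 1) (intensity trend, group alone, 2-sided, Benjamini-Hochberg), for 9986 of 10041 rows with at least 1 FPKM in at least 3 libraries, and called under an adjusted p of 0.05. The SE of the 4 member genes is that of a difference of 2 means. The pseudocount understates changes of low genes. Alternatives changed the pseudocount, filter, scaling, trend, rows, block and libraries.

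The 4 genes, the 6 role lists and the rules were chosen with earlier results of these data known. The text names the 4 genes, the called genes of the role lists, the 2 most abundant uncalled genes of each list (1 among T cell targets) and the 3 nearest profiles; 1 called gene and 1 near profile are not reported here. Markers, genes without a row, flanking and overlapping genes and Rpl9 lie outside that rule and were named after their values were seen.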

Additional observations from a re-analysis of the deposited data

How the results depend on the processing

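Of the 4 genes, Arnt, Tiparp and Cyp1a1 kept the direction of their difference in each alternative that gave a value, and Ahr changed sign only on leaving out a library, as given above. For Ahr the difference without single libraries ran from -0.11 to 0.34, for Arnt from -0.57 to -0.25, for Tiparp from 0.79 to 1.05 and for Cyp1a1 from 2.26 to 2.71. The difference of Cyp1a1 was 4.21 with a pseudocount of 0.1 and 3.08 with 0.5, against 2.49 with 1. All of these values include the listed 0 of DMSO replicate 2. A minimum of 5 FPKM left out Cyp1a1 and the omission of rows sharing a locus left out Tiparp, so neither has a value there. Of the pathway list, 9 genes rose with a minimum of 5 FPKM, where 43 were tested, 10 to 16 rose without single libraries and 3 to 9 fell. Over all genes, 780 to 1387 rose and 989 to 1861 fell without single libraries, against 1403 and 1610 with all. Il10, not called, had a change of -0.12 without DMSO replicate 1 and 0.39 without DMSO replicate 2.

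With the column number as a replicate block, 1668 genes rose and 1864 fell, and 15 and 11 of the pathway list; Hif1a (adjusted p = 0.0132) and Ptges3 (0.0471) were called lower, and no call named above was lost. The titles use 17, 42 and 43 in both groups, but no column carries them. Deviations from the group means correlated at 0.06, 0.25 and 0.13 between libraries of the same column number (1, 2 and 3) and at -0.22 to 0.12 between those of different numbers. Each library correlated best with its own number except oligomycin replicate 1, which did so with DMSO replicate 3. As 1 same-number value was under 0.1, the numbers were not taken to pair the libraries. Depth is unknown, which limits statements on genes near 0.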
